A study of Mus musculus with 15 samples.

Results

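The genes described here are 10 enzymes and carriers by which the liver turns amino acid nitrogen into urea: Cps1, Otc, Nags, Slc25a15, Ass1, Asl, Arg1, Gls2, Hal and Sds. They were matched by gene symbol, from a set drawn up with earlier results of these data known, and all 10 were found among the 26264 genes of the count table. Polyadenylated liver RNA was sequenced from 15 mice, 1 library each, in a mouse model in which high-fat feeding gives rise to MASLD, the fatty liver disease of metabolic dysfunction. The labels give 5 groups of 3 mice. SD-NS and HFD-NS are named by their diet code and NS, HFD-Res is the high-fat diet group given resmetirom, which activates the beta form of the thyroid hormone receptor, and HFD-337 is the high-fat diet group in which the kinase STK25 was knocked down with the antisense agent Gc337. HFD-338 is a further high-fat diet group whose number the labels do not explain, and SD and NS are not spelled out either. Strain, sex, age, dose and duration of treatment are not given in the sources used here.

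The urea cycle begins in the mitochondria of hepatocytes, where Cps1 joins ammonia and bicarbonate into carbamoyl phosphate and needs N-acetylglutamate, the product of Nags, to be active. Otc passes the carbamoyl group to ornithine, which Slc25a15 brings into the mitochondrion in exchange for citrulline, and in the cytosol Ass1, Asl and Arg1 turn citrulline into urea and ornithine. Gls2, the liver glutaminase, and the amino acid degrading enzymes Hal (histidine) and Sds (serine) release ammonia that feeds the cycle. These enzymes are known to be most abundant in hepatocytes near the portal vein, and several of them are known to be induced by glucagon and glucocorticoids, for example in fasting or on a protein-rich diet.

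Upstream sequence is shown for 4 of the genes that had a promoter window. Hal and Ass1 were both called lower in HFD-Res than in HFD-NS, and Otc and Nags were both called higher in HFD-NS than in SD-NS. Ass1 and Nags lost these calls in some alternatives, as given below. RefSeq promoter windows of build GRCm38.p6 were matched by symbol for 5 of the 10 genes (Ass1, Hal, Nags, Otc and Slc25a15), and none was matched for Arg1, Asl, Cps1, Gls2 and Sds. GRCm38.p6 is an older build than the mm39 of the counts, so these coordinates are not comparable with those given for the genes further on. Each sequence is the 250 bases before the annotated start, 5′ to 3′ on the strand of the gene, with motif matches in capitals. All 4 genes lie on the plus strand, at chr10:93488518-93488767 for Hal, chr2:31470020-31470269 for Ass1, chrX:10252055-10252304 for Otc and chr11:102145263-102145512 for Nags.
Hal: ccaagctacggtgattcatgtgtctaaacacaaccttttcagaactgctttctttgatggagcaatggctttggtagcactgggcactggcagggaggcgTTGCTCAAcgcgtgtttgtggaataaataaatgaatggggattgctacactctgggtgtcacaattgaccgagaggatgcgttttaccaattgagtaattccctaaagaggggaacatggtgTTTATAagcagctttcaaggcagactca
Ass1: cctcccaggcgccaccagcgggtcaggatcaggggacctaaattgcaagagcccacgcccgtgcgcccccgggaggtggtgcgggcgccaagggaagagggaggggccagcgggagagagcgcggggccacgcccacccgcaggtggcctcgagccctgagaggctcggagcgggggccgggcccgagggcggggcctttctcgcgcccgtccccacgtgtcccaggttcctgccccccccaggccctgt
Otc: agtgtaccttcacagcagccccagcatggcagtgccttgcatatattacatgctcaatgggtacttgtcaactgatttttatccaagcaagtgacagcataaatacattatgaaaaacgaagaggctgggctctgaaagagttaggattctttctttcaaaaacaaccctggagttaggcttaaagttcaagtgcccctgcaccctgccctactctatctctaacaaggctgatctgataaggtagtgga
Nags: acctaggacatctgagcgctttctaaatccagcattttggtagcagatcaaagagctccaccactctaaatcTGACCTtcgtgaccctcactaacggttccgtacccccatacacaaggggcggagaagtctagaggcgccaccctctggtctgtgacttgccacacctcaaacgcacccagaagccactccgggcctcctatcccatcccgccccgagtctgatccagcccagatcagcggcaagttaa

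On both strands 5 motifs were searched: the half-site of the cyclic AMP response element (TGACG), the palindrome bound by C/EBP factors (TTGCNNAA), the nuclear receptor half-site (AGGTCA), the glucocorticoid receptor half-site (AGAACA) and the TATA box (TATAAA). None of these motifs overlapped another in the windows shown. The capitals in Hal mark a C/EBP palindrome that begins 150 bases upstream and a TATA box, read on the opposite strand, 28 bases upstream. In Nags they mark a nuclear receptor half-site on the opposite strand, 178 bases upstream. The windows of Ass1, Otc and Slc25a15 held none of these letters. Over all 32851 mouse windows of this length, 9.56% held the C/EBP palindrome, 12.4% the TATA box, 14% the nuclear receptor half-site, 17.8% the cyclic AMP half-site and 16.1% the glucocorticoid half-site. A match describes the letters only.

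Libraries held 3873903 to 9797743 counts. Stk25, the targeted gene, lay at 14.6 to 22.0 CPM (counts scaled to library size) in the 6 libraries labelled HFD-337 or HFD-338 and at 37.7 to 53.3 CPM in the other 9, so HFD-338 was low in Stk25 as well. The 11 hepatocyte markers in the table (among them Alb, Apoa1 and Ttr) summed to between 99687 and 164619 CPM in every library. Of all genes in a comparison between 13% and 58.4% passed the test, as given with the counts of each comparison below. Position along the portal-central axis could not be checked in whole tissue. In bulk tissue, fewer cells of a type and less RNA per cell cannot be told apart. Levels are CPM with library sizes scaled by TMM. Levels of different genes are compared only as RPKM, which divides CPM by exon length in kilobases, apart from the share of Cps1 in the summed counts. A gene is called when its adjusted p from edgeR's quasi-likelihood test (Benjamini-Hochberg over the 13189 genes tested) is under 0.05. Intervals of log2 fold changes are 95% intervals of that fit, values after ± are SDs over 3 libraries, and p-values measure only the spread between these mice. In the other 5 pairs of groups, tested to compare neighbours in the order of means, 47.6% of all genes were called between HFD-337 and HFD-Res, 43.1% between HFD-338 and HFD-Res, 55.2% between HFD-337 and SD-NS, 48.7% between HFD-338 and SD-NS and 26.9% between HFD-Res and SD-NS.

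Per length, Arg1 was the most abundant of the 10 in every group, with a mean of 1273 RPKM in SD-NS, 883 in HFD-NS, 713 in HFD-338, 817 in HFD-337 and 959 in HFD-Res. Nags, which makes an activator and not a bulk product, was the least abundant in every group, at 11.9 to 18.3 RPKM. The 10 genes together held 1.01% to 1.12% of the scaled counts in SD-NS, 0.594% to 0.833% in HFD-NS, 0.616% to 0.798% in HFD-338, 0.355% to 0.619% in HFD-337 and 0.543% to 0.682% in HFD-Res. The SD-NS libraries therefore stood above all 12 high-fat diet libraries. Cps1 made up 45.4% to 53.0% of that sum in SD-NS. This is a share of counts, not divided by exon length, and the exon length of Cps1, 5562 bases, is the longest of the 10. In HFD-337 the share of Cps1 was 17.8% to 24.2%, below the 38.4% to 53.0% of all other libraries.

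**Figure D1:**
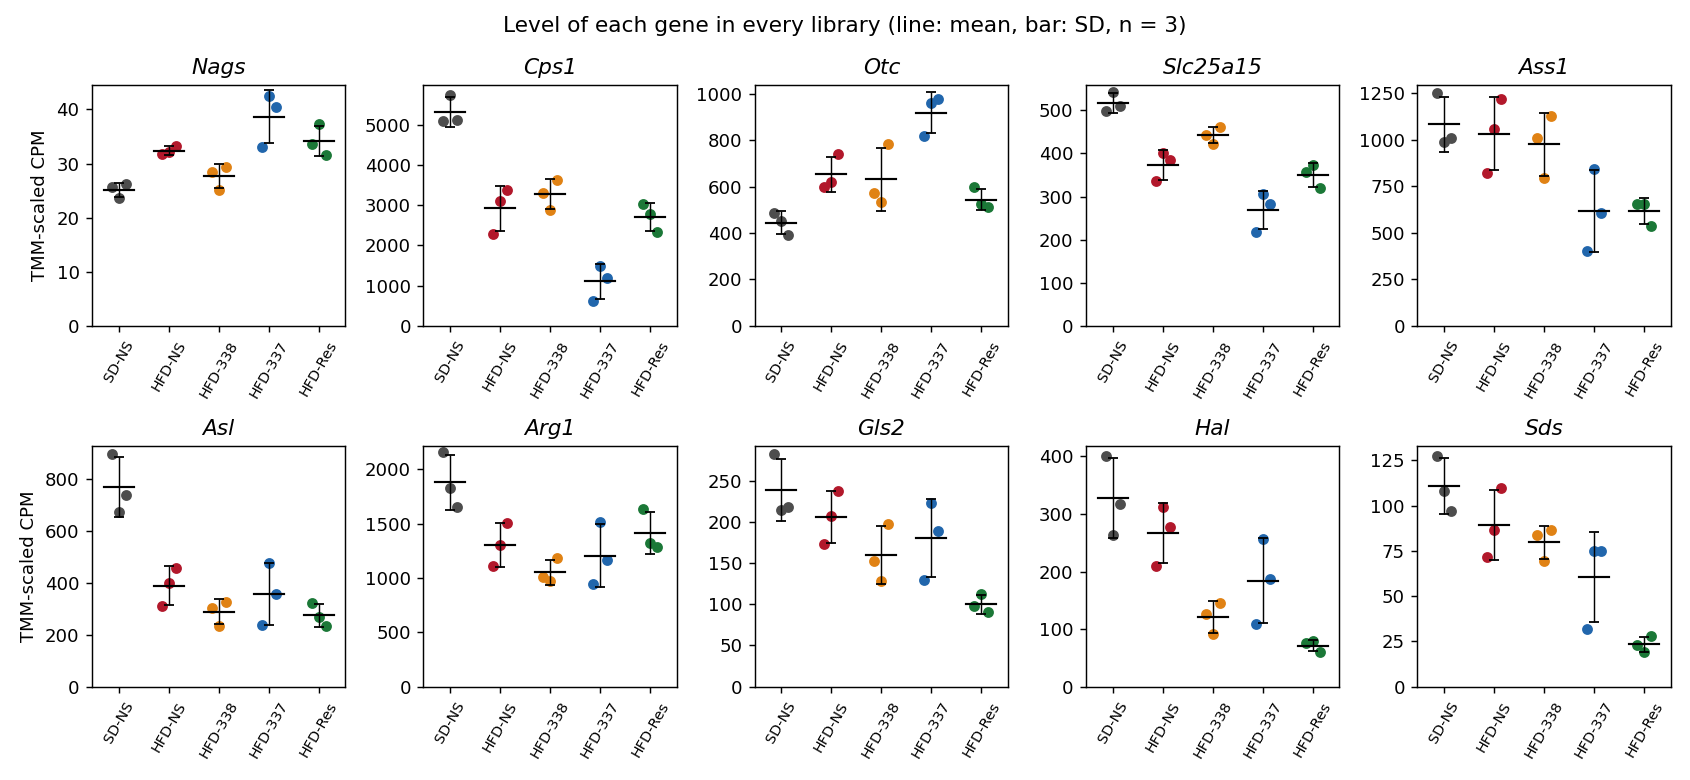
Level of each of the 10 genes (TMM-scaled CPM, linear axis from 0) in every library of the 5 groups, with 1 panel per gene. Points are libraries, lines are means and bars are SDs over 3 libraries. Cps1 lies between 630 and 1497 CPM in HFD-337 and at 2282 CPM or more in all other libraries, Otc lies highest in HFD-337, and Hal and Sds lie lowest in HFD-Res.

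Among the mitochondrial steps, Cps1 (chromosome 1, 67162186 to 67270426 in mm39) had the widest range over groups. SD-NS replicates 6, 7 and 8 held 5090, 5740 and 5129 CPM of it, and HFD-NS replicates 12, 13 and 16 held 2282, 3113 and 3369. HFD-338 replicates 17, 18 and 19 held 3306, 2895 and 3635 CPM, HFD-337 replicates 23, 26 and 27 held 630, 1497 and 1202, and HFD-Res replicates 29, 30 and 34 held 3025, 2784 and 2329. The same order of replicates is used for all genes below. The groups thus formed 3 tiers that did not overlap: SD-NS on top, HFD-338, HFD-NS and HFD-Res in the middle, and HFD-337 at the bottom. Neighbours within the middle tier did not differ beyond their spread (HFD-338 and HFD-NS, adjusted p = 0.622; HFD-NS and HFD-Res, adjusted p = 0.836; edgeR), whereas SD-NS and HFD-338 (adjusted p = 0.0273) and HFD-Res and HFD-337 (adjusted p = 0.000619) did. The difference of SD-NS and HFD-338 lost its call in 6 of 12 alternatives: without SD-NS replicate 7 (edgeR, adjusted p = 0.0758), without HFD-338 replicates 17 (0.0640), 18 (0.131) or 19 (0.0548), without the filter on low counts (0.0878) and on recomputed TPM (0.133).

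Otc (chromosome X, 10118544 to 10187263), the enzyme directly after Cps1, ran the other way. It lay at 489, 454 and 391 CPM in SD-NS, while HFD-NS held 597, 622 and 739. Libraries of HFD-338 held 573, 534 and 786 CPM, those of HFD-337 817, 961 and 979 and those of HFD-Res 597, 523 and 513. Every HFD-337 library was above every library of the other groups, and every SD-NS library was below them. In the order of means (HFD-337, HFD-NS, HFD-338, HFD-Res, SD-NS) the first 2 neighbours differed (edgeR, adjusted p = 0.00658), and the others did not pass, with adjusted p = 0.813, 0.226 and 0.135. The ratio of Cps1 to Otc in RPKM, a ratio of levels within a library, was 4.34 to 5.47 in SD-NS, 1.59 to 2.09 in HFD-NS, 1.93 to 2.40 in HFD-338 and 1.89 to 2.22 in HFD-Res. It was 0.322 to 0.649 in HFD-337, where Otc exceeded Cps1 per length in all 3 libraries.

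Nags (chromosome 11, 102036339 to 102040354), which makes the activator of Cps1, had a narrow range, with group means from 25.2 CPM in SD-NS to 38.6 in HFD-337. It lay at 25.7, 23.7 and 26.2 CPM in SD-NS, while HFD-NS held 31.8, 32.2 and 33.3. The other 3 groups held 33.1, 42.4 and 40.4 CPM (HFD-337), 28.5, 25.1 and 29.3 (HFD-338) and 33.6, 37.3 and 31.7 (HFD-Res). No pair of neighbours in the order HFD-337, HFD-Res, HFD-NS, HFD-338, SD-NS passed the test (edgeR, adjusted p from 0.107 to 0.744). Slc25a15 (chromosome 8, 22865566 to 22888637), the ornithine and citrulline carrier of the mitochondrion, followed the order of Cps1. It lay at 499, 543 and 510 CPM in SD-NS, while HFD-NS held 335, 402 and 385. Libraries of HFD-338 held 443, 423 and 460 CPM, those of HFD-337 219, 305 and 282 and those of HFD-Res 357, 374 and 320. SD-NS stood above and HFD-337 below all other groups without overlap, and of the neighbours only HFD-Res and HFD-337 differed (edgeR, adjusted p = 0.0106; the others 0.107 to 0.661), a call lost without HFD-337 replicate 23 (0.0612).

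In the cytosol, Ass1 (chromosome 2, 31360282 to 31410682), which joins citrulline to aspartate, split the groups differently. It lay at 1252, 988 and 1009 CPM in SD-NS, 824, 1059 and 1217 in HFD-NS and 1009, 792 and 1127 in HFD-338, which overlap. In HFD-337 it lay at 400, 842 and 607 CPM and in HFD-Res at 657, 654 and 536, with nearly equal means of 616.5 and 615.8. The only neighbours that differed were HFD-338 and HFD-337 (edgeR, adjusted p = 0.0232), although their libraries overlap and leaving out single libraries ended the call, as given with that comparison. Asl (chromosome 5, 130040099 to 130053222), which splits argininosuccinate into arginine and fumarate, was high in SD-NS alone. It lay at 896, 673 and 741 CPM in SD-NS, while HFD-NS held 309, 401 and 459. The other 3 groups held 238, 478 and 356 CPM (HFD-337), 303, 234 and 327 (HFD-338) and 321, 268 and 235 (HFD-Res). The 4 high-fat diet groups overlap each other, and only SD-NS and HFD-NS differed among neighbours (edgeR, adjusted p = 0.00673; the others 0.257 to 0.831). Arg1 (chromosome 10, 24791105 to 24803368), which releases urea from arginine, lay at 1655 to 2157 CPM in SD-NS, 1108 to 1505 in HFD-NS, 970.1 to 1183 in HFD-338, 943 to 1513 in HFD-337 and 1290 to 1637 in HFD-Res. No neighbours in its order differed (edgeR, adjusted p from 0.0701 to 0.707).

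The 3 enzymes that deliver nitrogen were lowest in HFD-Res. Hal (chromosome 10, 93324630 to 93352623) lay at 402, 263 and 318 CPM in SD-NS, while HFD-NS held 209.6, 312 and 277. Libraries of HFD-338 held 127, 90.8 and 146 CPM, those of HFD-337 109, 256 and 188 and those of HFD-Res 76.0, 78.4 and 59.6. Sds (chromosome 5, 120614612 to 120621970) lay at 128, 108 and 97.0 CPM in SD-NS, while HFD-NS held 71.3, 86.8 and 110. The other 3 groups held 32.1, 74.7 and 75.1 CPM (HFD-337), 83.6, 69.3 and 86.4 (HFD-338) and 22.9, 19.3 and 27.8 (HFD-Res). Gls2 (chromosome 10, 128030504 to 128045873) lay at 283, 215 and 218 CPM in SD-NS, while HFD-NS held 173, 207 and 237. Libraries of HFD-338 held 153, 128 and 198 CPM, those of HFD-337 129, 223 and 189 and those of HFD-Res 97.4, 113 and 90.4. All 3 HFD-Res libraries were below all 12 other libraries for each of these genes, and the HFD-Res mean ± SD was 71.3 ± 10.3 CPM for Hal, 23.3 ± 4.23 for Sds and 100.2 ± 11.5 for Gls2 (n = 3). Neighbouring groups differed for Sds between HFD-337 and HFD-Res (edgeR, adjusted p = 0.00271) and for Gls2 between HFD-338 and HFD-Res (adjusted p = 0.0168). Hal missed the threshold between HFD-338 and HFD-Res (edgeR, adjusted p = 0.0588). It passed in 4 of 12 alternatives: by DESeq2 (adjusted p = 0.0114), in the edgeR fit of the 2 groups alone (0.00503), on recomputed TPM (limma, 0.0196) and without HFD-338 replicate 18 (edgeR, 0.0437). The call of Gls2 was lost without HFD-338 replicate 19 (edgeR, adjusted p = 0.0796), HFD-Res replicate 29 (0.0520) or 34 (0.0723), and without the filter on low counts (0.0513). Exons of Gls2 and Sds overlap those of Spryd4 and Plbd2 over 3.82% and 1.12% of their length, and reads there were counted for both genes.

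The diet comparison sets HFD-NS against SD-NS, which are separate mice. Of the 10 genes, 4 fell and 2 rose, against 28.1% of all genes called (16.1% fell and 12% rose), and the libraries of the 2 groups did not overlap for 6 of the 10, against 44.8% of all genes. The falls were in the first step and in the later ones: Cps1 fell by 0.86 on the log2 scale (interval -1.38 to -0.35, edgeR, adjusted p = 0.0163), Asl by 0.98 (-1.48 to -0.48, 0.00673), Arg1 by 0.53 (-0.87 to -0.19, 0.0208) and Slc25a15 by 0.47 (-0.71 to -0.23, 0.0053). Otc rose by 0.55 (0.26 to 0.84, edgeR, adjusted p = 0.00614) and Nags by 0.36 (0.13 to 0.60, 0.0216). Ass1 differed by -0.07 (-0.56 to 0.42), Gls2 by -0.22 (-0.65 to 0.21), Hal by -0.30 (-0.93 to 0.33) and Sds by -0.32 (-0.90 to 0.27), none of which passed. The median of the 10 was -0.31, against -0.02 over all genes.

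Several of these calls were lost in some alternatives, with a library left out or with all libraries kept, while the direction stayed the same. Cps1 lost its call without SD-NS replicate 7 (edgeR, adjusted p = 0.0581), without HFD-NS replicate 12 (0.0597) and without the filter on low counts (0.0705). Arg1 lost it without SD-NS replicate 6 (0.104) or HFD-NS replicates 12 (0.0888) or 13 (0.0582), with no filter (0.0565) and on recomputed TPM (0.0759), and Nags lost it without SD-NS replicates 6 (0.0537) or 7 (0.0959) or HFD-NS replicate 16 (0.0704). Without HFD-NS replicate 12, 2 of the 10 fell in place of 4, and without SD-NS replicate 6 or 7 or HFD-NS replicate 16, 1 rose in place of 2. The calls of Asl, Slc25a15 and Otc held in each of their 12 alternatives.

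Around the cycle, 6 of 21 genes of nitrogen entry and glutamine rose with the diet and 5 fell. Over all genes 12% rose and 16.1% fell with the diet, shares that also belong beside the list counts that follow. Glud1, the mitochondrial glutamate dehydrogenase, rose by 0.56 (log2; edgeR, adjusted p = 0.000609), Glul, the glutamine synthetase of hepatocytes near the central vein, by 1.00 (9.31e-05), and Car5a, the mitochondrial carbonic anhydrase that makes bicarbonate for Cps1, by 1.95 (3.71e-05). Got1, the cytosolic aspartate aminotransferase, fell by 1.07 (0.000616). Sdsl, a relative of Sds, fell by 1.83 (2.59e-05), from 12.4 to 23.2 CPM down to 4.64 to 5.46, while Sds itself did not pass. Among 31 genes of sulfur amino acid, tryptophan, tyrosine and other amino acid breakdown, 10 rose, such as Prodh, which opens proline breakdown, and 10 fell, such as Tat, tyrosine aminotransferase, by 1.32 (0.0244). Of 20 amino acid transporters 4 rose and 3 fell, among them Slc7a2, an arginine carrier (-0.80, 0.0328).

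Among 16 regulators of the cycle 5 fell and 2 rose: Gcgr, the glucagon receptor, fell by 0.24 (edgeR, adjusted p = 0.0465) and Cebpa rose by 0.75 (0.000293). Of 23 fasting and feeding genes 10 fell, among them Pdk4 (-3.48), Igfbp1 (-3.13) and G6pc (-2.12), and 3 rose. The summed level of this list was 13820 to 14367 CPM in SD-NS and 8560 to 8730 in HFD-NS. Pericentral markers rose in 10 of 20 cases and fell in 0 (edgeR; 1 at an unadjusted p under 0.05, 1 by DESeq2 and 1 by limma-voom), from 13609 to 14932 summed CPM to 21770 to 24024, while of 19 other periportal markers 5 fell and 2 rose. Of 12 macrophage markers 4 rose (105 to 203 summed CPM in SD-NS, 177 to 254 in HFD-NS) and of 12 stellate cell markers 3 rose (402 to 470 against 462 to 555), with none falling in either list (edgeR; 0 at an unadjusted p under 0.05, 0 by DESeq2 and 0 by limma-voom for both). The part of fasting state, zonation and other cells in the changes of the 10 genes was not tested.

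In HFD-337 against HFD-NS Cps1, Slc25a15 and Ass1 fell and Otc rose. These 4 of 10 genes are a share near the 47.2% of all genes called (22.8% fell and 24.4% rose), so the count does not set them apart. Groups did not overlap for 3 of the 10, against 52.8% of all genes. Cps1 fell by 1.40 on the log2 scale (interval -1.92 to -0.87, edgeR, adjusted p = 0.000354), to 38.0% of the HFD-NS mean. Slc25a15 fell by 0.48 (-0.72 to -0.24, 0.00219) and Ass1 by 0.74 (-1.24 to -0.25, 0.016). Otc rose by 0.49 (0.20 to 0.78, edgeR, adjusted p = 0.00658). Nags lay higher by 0.26 (0.03 to 0.48) and did not pass (0.0575), and the remaining 5 were at -0.55 for Sds (-1.15 to 0.04), -0.53 for Hal (-1.16 to 0.11), -0.19 for Gls2 (-0.62 to 0.24), -0.12 for Asl (-0.62 to 0.37) and -0.11 for Arg1 (-0.45 to 0.23). The median of the 10 was -0.33, against 0.03 over all genes. Ass1 lost its call in a fit of the 2 groups alone (edgeR, adjusted p = 0.0562) and without HFD-NS replicate 16 (0.0648), and without HFD-337 replicate 23 Nags passed (0.0135), so that 2 of the 10 rose. Hal passed without HFD-337 replicate 26 (edgeR, adjusted p = 0.0327), and on recomputed TPM Hal (limma, adjusted p = 0.0394) and Sds (0.0215) passed, so that 5 fell.

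Of 21 other nitrogen genes 7 fell and 4 rose, where 47.2% of all genes were called (22.8% fell and 24.4% rose). The same shares belong beside the list counts that follow for HFD-337 against HFD-NS. Slc25a13, the carrier that supplies aspartate to Ass1, fell to 159 to 211 CPM from 293.5 to 329.7 (log2 fold change -0.70), Car5a fell by 0.85 (0.00427) and Got1 by 0.87 (0.00144). Arg2, the mitochondrial arginase, rose by 1.46 (edgeR, adjusted p = 0.0022) from 1.49 to 2.45 CPM to 4.15 to 7.71. Exons of Arg2 and Car5a overlap those of Vti1b and BC048644 over 20.1% and 12.7% of their length. Reads there were counted for both genes in every comparison, and their part in these values was not tested. Of 17 genes of histidine, serine, glycine and threonine breakdown 5 rose and 5 fell, with Ftcd and Uroc1, which act after Hal on the histidine route, up by 1.07 and 0.37, and Gldc, the glycine decarboxylase, down by 1.43. Of 16 regulators 6 rose and 5 fell. Gcgr rose by 0.81 (7.1e-07), from 158 to 170 CPM to 277 to 302, and Crtc2, a coactivator of CREB, by 0.84 (3.29e-06), whereas Hnf4a fell by 0.74 (2.15e-05) and Ppara by 1.14 (4.73e-07). Of 23 fasting and feeding genes 8 fell and 0 rose (edgeR; 0 at an unadjusted p under 0.05, 0 by DESeq2 and 0 by limma-voom).

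Markers of other cells also differed. All 12 sinusoidal endothelial markers fell, from 342 to 408 summed CPM in HFD-NS to 112 to 140 in HFD-337, and 6 of 12 stellate cell markers fell, from 462 to 555 to 191 to 370. Hepatocyte markers were split, with 5 of 11 higher and 3 lower, and their sum was 113779 to 159060 CPM against 132742 to 143785 in HFD-NS. Cholangiocyte markers rose in 3 of 9 cases, from 134 to 157 summed CPM to 172 to 350. The pericentral sum was lower, at 13658 to 19014 CPM against 21770 to 24024, with 4 of 20 markers up and 5 down, and of 19 other periportal markers 4 rose and 4 fell (37536 to 56582 CPM against 38585 to 42955). None of the endothelial, stellate or hepatocyte markers was at 0 in a group. The part of these cells and of zonation in the changes of Cps1, Ass1, Slc25a15 and Otc was not tested.

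Gene length moved with this comparison. The median log2 fold change over tested genes fell from 0.34 for genes spanning under 10 kb to 0.02 for 10 to 50 kb, -0.20 for 50 to 100 kb, -0.33 for 100 to 200 kb and -0.57 for 200 kb or more. Cps1, at 108241 bases, belongs to the class of 1028 genes from 100 to 200 kb, of which 40.6% fell, and its change of -1.40 lay below that class's median. Otc (68720 bases) and Ass1 (50401 bases) belong to the class with a median of -0.20, and Otc rose while Ass1 fell. Slc25a15 (23072 bases) fell in a class with a median of 0.02. In the 3 other comparisons with HFD-NS or SD-NS the class medians lay between -0.13 and 0.07, whereas HFD-337 against HFD-338 had a gradient like that of HFD-337 against HFD-NS, given with that comparison. The part of gene length in the change of Cps1 was not tested.

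**Figure D2:**
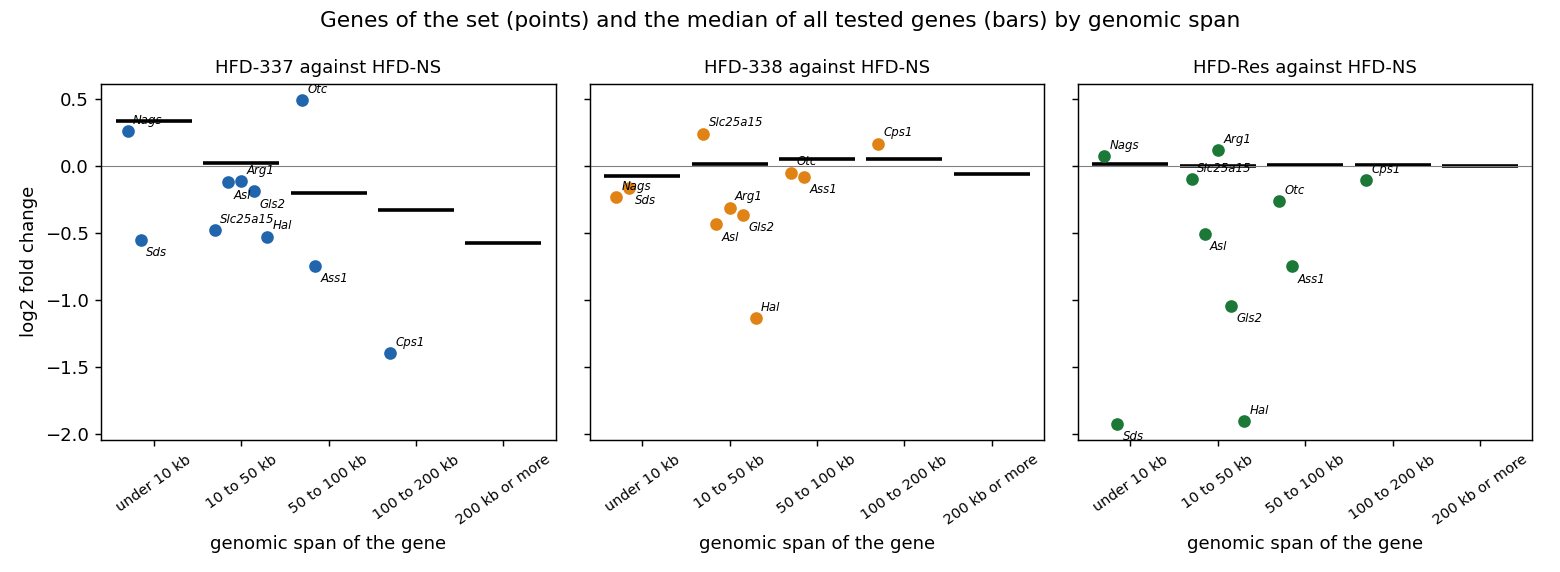
Log2 fold change of HFD-337 against HFD-NS by genomic span of the gene, beside those of HFD-338 and HFD-Res, with 1 panel per comparison; bars are medians of all tested genes in each of 5 span classes and points are the 10 genes. Class medians of HFD-337 go down from 0.34 to -0.57 with span, and Cps1 lies at -1.40 in the class of 100 to 200 kb.

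In HFD-338 against HFD-NS 1 of the 10 genes passed the test. Cps1 and Slc25a15 lay above 0 and the others below it. Hal alone was called, with a fall of 1.14 on the log2 scale (interval -1.78 to -0.49, edgeR, adjusted p = 0.0103). Calls of a rise were 0 of 10 (edgeR; 1, Slc25a15, at an unadjusted p under 0.05, 0 by DESeq2 and 0 by limma-voom). Of all genes 36.8% were called (17.9% fell and 18.9% rose), so the share of 1 in 10 was below the background, and groups did not overlap for 3 of the 10 against 51% of all genes. Cps1 was at 0.17 (-0.35 to 0.68), Otc at -0.05 (-0.34 to 0.24), Slc25a15 at 0.24 (0.002 to 0.48), Nags at -0.23 (-0.46 to -0.002), Ass1 at -0.08 (-0.57 to 0.41), Asl at -0.44 (-0.93 to 0.06), Arg1 at -0.31 (-0.65 to 0.03), Gls2 at -0.37 (-0.80 to 0.06) and Sds at -0.16 (-0.75 to 0.42). Hal lost its call without HFD-338 replicate 18 (edgeR, adjusted p = 0.0511), which leaves 0 of the 10, and Slc25a15 passed on recomputed TPM (limma, adjusted p = 0.0266).

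Genes next to the cycle also changed in HFD-338. Of 21 nitrogen genes 9 fell and 3 rose. Over all genes 17.9% fell and 18.9% rose, shares that also belong beside the list counts that follow. Glul fell by 1.94 (edgeR, adjusted p = 5.56e-08), from 1615 to 1838 CPM to 367 to 570, and Oat, which turns ornithine into glutamate in the same pericentral cells, by 1.46 (0.00497). Of 17 genes of histidine, serine, glycine and threonine breakdown 9 fell and 0 rose (edgeR; 0 at an unadjusted p under 0.05, 0 by DESeq2 and 0 by limma-voom), among them Shmt2 (-0.98) and Dmgdh (-1.04). Of 31 genes of other amino acid breakdown 16 fell and 2 rose. Of 16 regulators 10 fell and 0 rose (0 unadjusted, 0 by DESeq2, 0 by limma-voom), with Cebpa at -0.87 (4.47e-05), Ppara at -0.87 (1.72e-05) and Foxa2 at -0.90 (0.0039).

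All 9 tested cholangiocyte markers rose in HFD-338, from 134 to 157 summed CPM over 12 markers in HFD-NS to 720.5 to 876.2, with Cldn4 among those at 0 in HFD-NS. Of 12 macrophage markers 7 rose (177 to 254 CPM against 254 to 690), of 12 stellate cell markers 5 rose and 1 fell (462 to 555 against 853 to 1451), and 8 of 12 sinusoidal endothelial markers fell (342 to 408 against 161 to 281). Pericentral markers fell in 11 of 20 cases and rose in 3, from 21770 to 24024 CPM to 13385 to 17024. Of 19 other periportal markers 7 fell and 2, Cdh1 and Mup20, rose, while their sum was higher, at 47658 to 62788 CPM against 38585 to 42955. Hepatocyte markers summed to 125121 to 132950 CPM against 132742 to 143785. The part of these cells and of zonation in the change of Hal was not tested.

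In HFD-Res against HFD-NS Sds, Hal, Gls2 and Ass1 fell, and Cps1, Otc, Nags, Slc25a15, Asl and Arg1 did not pass. Of the 10 genes 4 fell, against 13% of all genes called (6.74% fell and 6.22% rose), and 0 rose (edgeR; 0 at an unadjusted p under 0.05, 0 by DESeq2 and 0 by limma-voom). The groups did not overlap for 4 of the 10, against 30.7% of all genes. Sds fell by 1.92 on the log2 scale (interval -2.57 to -1.27, edgeR, adjusted p = 0.00105), Hal by 1.90 (-2.57 to -1.24, 0.00145), Gls2 by 1.04 (-1.48 to -0.60, 0.0035) and Ass1 by 0.75 (-1.24 to -0.26, 0.0468). Cps1 was at -0.11 (-0.62 to 0.41), Otc at -0.26 (-0.55 to 0.03), Nags at 0.07 (-0.16 to 0.30), Slc25a15 at -0.10 (-0.34 to 0.14), Asl at -0.51 (-1.003 to -0.01, adjusted p = 0.187 by edgeR) and Arg1 at 0.12 (-0.22 to 0.46). The median of the 10 was -0.38, against 0.01 over all genes. The calls of Sds, Hal and Gls2 held in each of their 12 alternatives, but Ass1 lost its call in 7 of 12: with RLE size factors (edgeR, adjusted p = 0.0503), without the low-count filter (0.123), and without HFD-NS replicates 13 (0.117) or 16 (0.163) or HFD-Res replicates 29 (0.084), 30 (0.0981) or 34 (0.172).

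Of 17 genes of histidine, serine, glycine and threonine breakdown 3 fell and 1 rose. Over all genes 6.74% fell and 6.22% rose, shares that also belong beside the list counts that follow. Uroc1, which acts directly after Hal, fell by 0.76 (edgeR, adjusted p = 0.000554), beside Agxt2 and Sardh, and Shmt1, the cytosolic serine hydroxymethyltransferase, rose by 0.55 (0.00441). Of 21 nitrogen genes 4 fell, among them Oat (-1.54, 0.0094), Got1 (-0.99, 0.00227) and Slc25a13 (-0.35, 0.0456), and 3 rose, among them Asns, asparagine synthetase (3.47, 0.0231). Glul was at 1987 to 2127 CPM against 1615 to 1838 in HFD-NS. Of 31 genes of other amino acid breakdown 5 fell and 0 rose (edgeR; 1 at an unadjusted p under 0.05, 1 by DESeq2 and 1 by limma-voom). Of 20 transporters 6 rose and 1 fell, with Slc7a2, the arginine carrier, down by 1.23 (0.00636) and Slc38a2, a neutral amino acid carrier, up by 0.72 (0.0127). Gcgr rose by 0.30 (0.0265) and Foxo1 by 0.45 (0.0147), the 2 of 16 regulators that rose, and 0 fell (edgeR; 2 at an unadjusted p under 0.05, 0 by DESeq2 and 0 by limma-voom).

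Beside these changes, 8 of 19 other periportal markers fell and 3 rose in HFD-Res, from 38585 to 42955 summed CPM to 30697 to 32725. Hepatocyte markers also summed lower, at 99687 to 107924 CPM against 132742 to 143785, with 4 of 11 down, Alb among them (-0.56, edgeR, adjusted p = 0.0243), and 2 up. Of 20 pericentral markers 6 rose and 4 fell, and their sum was lower, at 14813 to 17535 CPM against 21770 to 24024. Sinusoidal endothelial markers lay at 340 to 400 CPM against 342 to 408. No hepatocyte or endothelial marker was at 0 in either group. The part of hepatocyte content and of zonation in the falls of Sds, Hal, Gls2 and Ass1 was not tested.

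**Figure D3:**
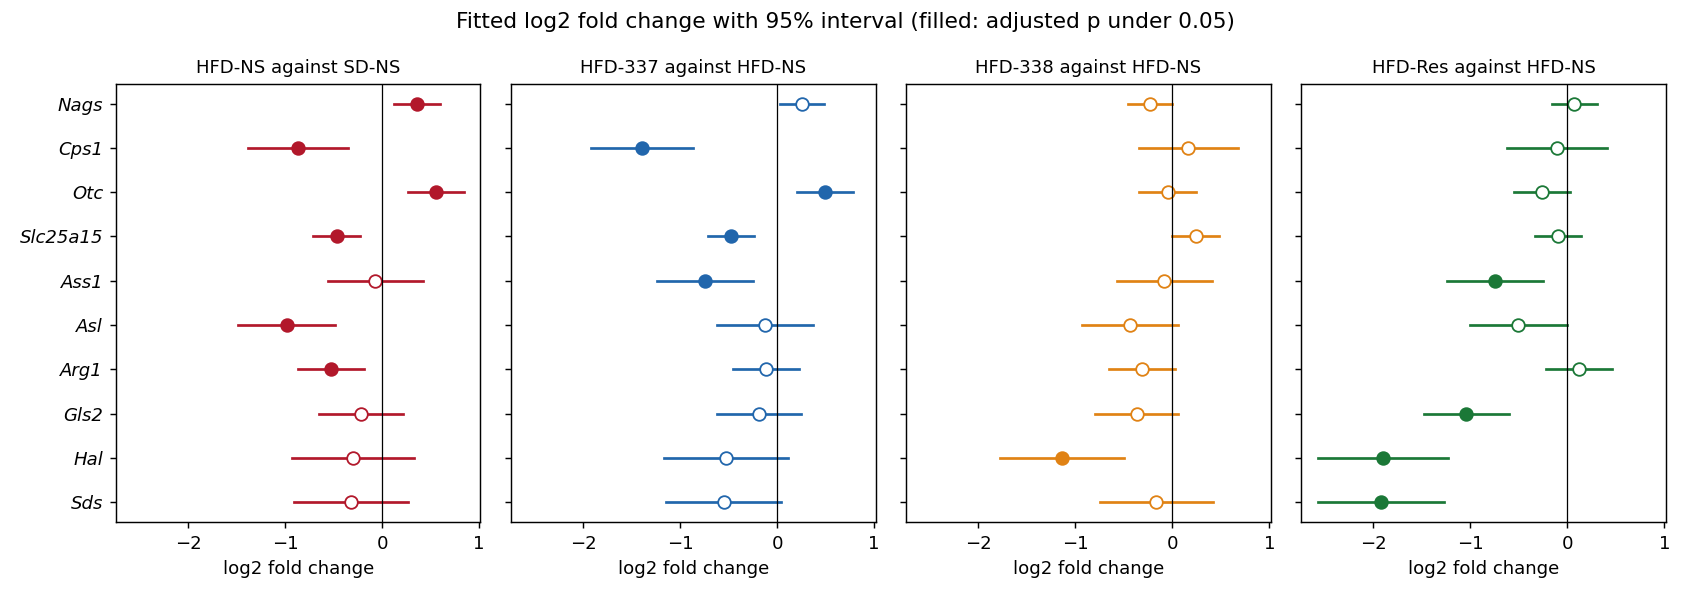
Log2 fold changes of the 10 genes with 95% intervals in 4 comparisons, 1 panel each; filled points passed an adjusted p under 0.05 and open points did not. Cps1 lies at -0.86 in the diet comparison, -1.40 in HFD-337 and near 0 in HFD-338 and HFD-Res, and Sds and Hal lie at -1.92 and -1.90 in HFD-Res.

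HFD-337 and HFD-338, both low in Stk25, differed in 5 of the 10 genes: Cps1, Slc25a15 and Ass1 were lower in HFD-337, and Otc and Nags were higher. This share is near the 58.4% of all genes called (29.6% fell and 28.8% rose), so the count does not set the 10 apart. Groups did not overlap for 4 of the 10, against 62.1% of all genes. Cps1 was lower by a log2 difference of -1.56 (interval -2.09 to -1.04, edgeR, adjusted p = 0.00011), Slc25a15 by -0.72 (-0.96 to -0.48, 4.07e-05) and Ass1 by -0.66 (-1.15 to -0.17, 0.0232). Otc was higher by 0.54 (0.25 to 0.83, edgeR, adjusted p = 0.00261) and Nags by 0.49 (0.26 to 0.72, 0.000952). Hal, at 0.61 (-0.03 to 1.25), Asl, at 0.31 (-0.18 to 0.81), Arg1, at 0.20 (-0.14 to 0.54), Gls2, at 0.18 (-0.26 to 0.61), and Sds, at -0.39 (-0.98 to 0.21), did not pass. On recomputed TPM, where the median of all genes shifted to -0.23, Otc (limma, adjusted p = 0.0813) and Nags (0.122) lost their calls and 0 of the 10 rose, whereas Cps1 and Slc25a15 kept theirs in each of 12 alternatives. Ass1 lost its call in 6 of 12, among them without HFD-338 replicates 17 (0.0565) or 19 (0.0907) and without HFD-337 replicates 23 (0.0703) or 27 (0.0645). Without HFD-337 replicate 23, 4 of the 10 rose, with Asl (0.0293) and Hal (0.00841) added.

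Other cells and gene length moved with the same comparison, in which 29.6% of all genes fell and 28.8% rose. In HFD-337 relative to HFD-338, 8 of 9 cholangiocyte markers fell (720.5 to 876.2 summed CPM in HFD-338, 172 to 350 in HFD-337), as did 10 of 12 stellate cell markers (853 to 1451 against 191 to 370), 9 of 12 macrophage markers (254 to 690 against 67.5 to 169) and 9 of 12 sinusoidal endothelial markers (161 to 281 against 112 to 140). Median log2 fold changes fell with genomic span here too, from 0.41 for genes under 10 kb over -0.02, -0.28 and -0.41 to -0.55 for those of 200 kb or more, and 49.5% of the genes in the class of Cps1 fell. The part of these cells and of gene length in the differences of the 10 genes was not tested.

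The comparisons with HFD-NS share its 3 libraries, so their values are set side by side and not counted as separate evidence. In the order HFD-337, HFD-338, HFD-Res, Cps1 was at -1.40, 0.17 and -0.11, and Otc at 0.49, -0.05 and -0.26. Ass1 was at -0.74, -0.08 and -0.75, and Slc25a15 at -0.48, 0.24 and -0.10. Hal was at -0.53, -1.14 and -1.90, Sds at -0.55, -0.16 and -1.92, and Gls2 at -0.19, -0.37 and -1.04. Other genes of the pathway that were followed whatever their result are given in the same order. Glutamine synthetase Glul was at -0.55, -1.94 and 0.23, glutamate dehydrogenase Glud1 at -0.44, -0.31 and 0.02, and the ornithine aminotransferase Oat at -0.85, -1.46 and -1.54. The aspartate carrier Slc25a13 was at -0.70, -0.42 and -0.35 and the glucagon receptor Gcgr at 0.81, -0.24 and 0.30. Arg2 was at 1.46, 0.64 and -0.02, and Sdsl at -0.16, -0.31 and -0.49. Of these, Oat in HFD-337, Arg2 in HFD-338, Glul, Glud1 and Arg2 in HFD-Res, and Sdsl in all 3 did not pass the test (edgeR).

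Within groups the 10 genes deviated together. HFD-NS replicate 12 was the lowest of its group for 10 of 10, where it was lowest for 32.2% of all tested genes, HFD-338 replicate 18 for 10 of 10 (33.5% of all genes) and HFD-337 replicate 23 for 10 of 10 (36.2%). HFD-Res replicate 34 was lowest for 9 of 10 (32%), and HFD-338 replicate 19 was highest for 10 of 10 (33.8%). In SD-NS no replicate was lowest for more than 5 of 10 (replicate 7, 32.5% of all genes), and replicate 6 was highest for 7 of 10 (32.5%). HFD-337 replicate 23 also had the highest summed red blood cell markers of its group (848 CPM against 365 and 201) and the highest cholangiocyte markers (350 against 172 and 188), with hepatocyte markers of 113779 CPM against 159060 and 121204. The part of these values in its low levels was not tested.

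**Figure D4:**
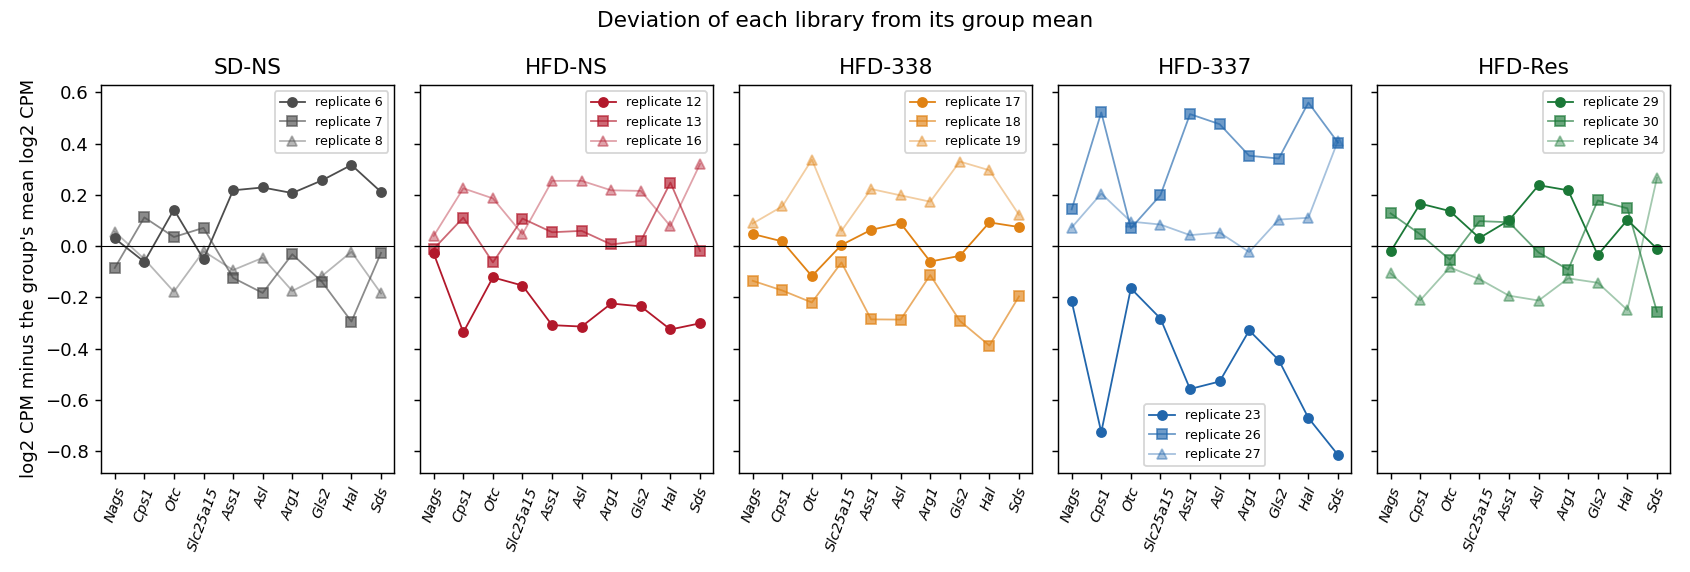
Log2 CPM of each library minus the mean of its group (vertical axis) for the 10 genes (horizontal axis), with 1 panel per group and 1 line of points per library. HFD-NS replicate 12, HFD-338 replicate 18 and HFD-337 replicate 23 lie lowest of their group for all 10 genes.

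The tested genes whose profile over the 15 libraries was most like that of a member were found by the root mean square difference (RMS) of log2 CPM centred on the mean of each gene. The closest match of Ass1 was Gnmt, the glycine N-methyltransferase (RMS 0.097, against 0.458 for the variation of Ass1 itself). Gnmt lay at 652 to 946 CPM in HFD-NS, 262 to 581 in HFD-337 and 436 to 491 in HFD-Res. The next was Gm5424 (0.172), a transcribed pseudogene by the RefSeq table and known as a copy of Ass1, so its reads and those of Ass1 may not be fully separated. Gm5424 held 5.12 to 24.1 CPM. Otc was closest to Ivd, the isovaleryl-CoA dehydrogenase of leucine breakdown (0.135), Slc25a15 to Eef1a1, a translation elongation factor (0.076), and Nags to Mylk, a myosin light chain kinase (0.110). Hal was closest to Uox, the urate oxidase of the liver (0.352), which was also the second match of Gls2 (0.213) after Mug2 (0.204). Cps1 had Morf4l1 (0.272), Asl had Slco2a1 (0.194), Arg1 had Phf14 (0.156) and Sds had Fbxo21 (0.376). These distances describe likeness over 15 libraries and say nothing of shared control.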

How the data were processed

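Livers of 15 mice were sequenced, 3 per group, and libraries were assigned to groups by their titles. Per the labels' protocols, RNA came from TRIzol extraction and was enriched for polyadenylated molecules. Tools named in the submitters' processing notes were Trim Galore 0.6.10, Bowtie 1.3.1 (role not given), STAR 2.7.10b and featureCounts 2.0.1, with build mm39. The deposited counts give, per the file headers, exonic reads of each gene irrespective of strand, and reads over several genes add to each of them. RPKM used the deposited exon length in bases. A second table held 15 per-sample TPM columns that were not used. Total counts were 3873903 to 9797743 per library, and their number limits the precision.

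The 10 genes and the 15 lists beside them were chosen with earlier results of these data known. Genes kept by filterByExpr (13189, all 10 members among them) were scaled by TMM and fitted in 1 model of 15 libraries in 5 groups with edgeR 4.0.16 (R 4.3.3), robust quasi-likelihood, Benjamini-Hochberg adjustment over all genes tested and a threshold of 0.05. The procedure was also run on simulated counts in which few genes were changed, in HFD-337 alone. That run does not cover shifts over as many genes as were called here. No library was a copy of another of its group by a chi-square comparison of counts. Other genes were named by a rule: up to 3 called genes per list and direction with the largest fold, a mean of at least 1 CPM and no overlap of groups, 8 pathway genes and Stk25 whatever their result, and the 3 closest profiles per member, of which the closest are printed. A few genes that the rule takes in are not reported here. Alternatives were RLE scaling, DESeq2 1.42.0, limma-voom (limma 3.58.1, with quality weights), testing every gene with a count, fitting the 2 groups alone, TPM recomputed from counts (log2 of TPM plus 1, TPM of at least 1 in 3 libraries) and leaving out each library. Exon overlaps were found with bedtools 2.31.1.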

Additional observations from a re-analysis of the deposited data

How the results depend on the processing

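No paired analysis was possible because no replicate number is shared by any groups compared. Over the 10 genes and all 10 pairs of groups, 1063 values under an alternative kept their direction and side of the threshold, 81 lost the call, 23 gained one and 33 changed sign. None of the 33 was called in edgeR, and the cause of these changes was not tested.

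Counts of the 10 genes moved as follows. In the diet comparison, 2 fell without a low-count filter, in place of 4. Over all genes 1511 of 19382 fell there, in place of 2122 of 13189. Leaving out a library gave 1 to 2 of the 10 that rose and 2 to 4 that fell. Over all genes it gave 1054 to 1399 that rose and 1424 to 1925 that fell, of 13429 to 13486 tested. In HFD-337 against HFD-NS, 2 rose by limma-voom, where 3080 of 13189 genes rose in place of 3214. On recomputed TPM 5 fell, where 3606 of 13635 genes fell in place of 3006 of 13189. Leaving out a library gave 1 to 2 of the 10 that rose, and 2669 to 2935 over all genes. In HFD-338 against HFD-NS, 1 rose on recomputed TPM, where 2782 of 13635 genes rose in place of 2490 of 13189. Leaving out a library gave 0 to 1 of the 10 that fell, and 1685 to 2162 over all genes. In HFD-337 against HFD-338, 0 rose on recomputed TPM (limma, 1 at an unadjusted p under 0.05), where 2167 of 13635 genes rose in place of 3794 of 13189. Leaving out a library gave 2 to 4 of the 10 that rose, and 3288 to 3775 over all genes.

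Log2 fold changes that turned on recomputed TPM were Ass1 with diet (0.0335), in HFD-338 against HFD-NS (0.0564), against SD-NS (0.0899) and in HFD-337 against HFD-Res (-0.20), Otc in HFD-338 against HFD-NS (0.0723), Slc25a15 in HFD-338 against SD-NS (0.0205), and Asl (-0.0109), Arg1 (-0.10) and Gls2 (-0.12) in HFD-337 against HFD-338. Ass1 in HFD-337 against HFD-Res, whose means are nearly equal, was also at -0.0081 with RLE, -0.0060 without the filter, -0.0126 by DESeq2 and -0.0054 in the fit of both groups alone. With a library left out, Ass1 ran from -0.20 to 0.0713 with diet, -0.23 to 0.0493 in HFD-338 against HFD-NS, -0.29 to 0.24 in HFD-337 against HFD-Res and -0.23 to 0.0228 in HFD-338 against SD-NS. Asl ran from -0.39 to 0.10, Arg1 from -0.31 to 0.0385 and Gls2 from -0.38 to 0.0007 in HFD-337 against HFD-NS. Otc ran from -0.24 to 0.0617 and Sds from -0.31 to 0.0067 in HFD-338 against HFD-NS, Cps1 from -0.26 to 0.0088 in HFD-Res against HFD-NS, Gls2 from -0.0033 to 0.38 in HFD-337 against HFD-338 and Asl from -0.0374 to 0.21 in HFD-338 against HFD-Res.

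Over all genes of the 5 comparisons described, the median fold moved by over 0.1 on recomputed TPM between HFD-337 and HFD-NS (from 0.03 to -0.08), between HFD-338 and HFD-NS (to 0.12) and between HFD-337 and HFD-338 (to -0.23; to -0.11 by DESeq2, which tested 16059 genes), and recomputed TPM changed the split of rises and falls in 4 comparisons. With diet 1908 rose and 1044 fell (1589 and 2122 in edgeR on counts), in HFD-337 2196 and 3606 (3214 and 3006), in HFD-338 2782 and 1283 (2490 and 2357), and in HFD-337 against HFD-338 2167 and 5325 (3794 and 3907).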
